A study of Homo sapiens with 12 samples.

Results

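The response to avadomide was compared between 2 molecular types of diffuse large B-cell lymphoma (DLBCL). The comparison used the avadomide and DMSO libraries of 4 established cell lines, 8 of the 12 libraries of the study. U2932 and TMD8 represented the activated B-cell type, while the germinal-centre type was represented by SUDHL-4 and WSU-DLCL2; the type of each line is background knowledge and is not in the labels. Each line was cultured for 18 hours with avadomide (CC-122) or with the solvent DMSO before RNA sequencing, with 1 library for each line and treatment. No dose is stated in the labels. The lines came from public cell banks and grew in RPMI-1640 medium with fetal bovine serum. A further 4 libraries, of the same lines with lenalidomide for the same time, gave a second reading of direction. Each of the 2 drugs was set against the same 4 DMSO libraries, so their changes are given side by side and were not counted as independent. Because the cells were sequenced in bulk, a change in every cell and a larger change in some cells cannot be told apart.

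Avadomide and lenalidomide attach to CRBN, or cereblon, which selects substrates for a cullin ubiquitin ligase. The ligase then marks Ikaros (IKZF1) and Aiolos (IKZF3), zinc finger factors of lymphoid cells, for degradation. Ikaros and Aiolos repress many genes in B cells, among them genes of the interferon response, and in activated B-cell type lymphoma they sustain IRF4, a transcription factor on which those cells depend together with NF-kB signalling. The germinal-centre type resembles B cells undergoing antibody maturation and relies more on BCL6 than on NF-kB.

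The deposited values are log2 expression values per gene, so a change is the avadomide value minus the DMSO value of the same line, and 1 unit is a 2-fold change. The 21713 genes tested reached a log2 value of 1 in 4 or more of the 8 libraries. The number of genes at or above a log2 value of 5 ran from 13942 to 15294 among the libraries; read depth is unknown. The line names fitted the marker genes of the activated side, and those of the germinal-centre side in part. In the DMSO libraries all 8 classifier genes of the activated side, IRF4 and TNFRSF13B among them, were higher in both activated type lines than in both germinal-centre type lines, with a median difference of 4.47. Of the 7 classifier genes of the germinal-centre side, 4 were lower in both activated type lines and 0 higher, with a median difference of -2.06. On this side U2932 was near the germinal-centre type lines. The DMSO medians of the 7 genes were 12.53 in U2932 and 9.96 in TMD8, against 12.78 in SUDHL-4 and 12.57 in WSU-DLCL2. All 7 B cell markers were above 1 in every library. SUDHL-4 stood apart in the size of its response. Under avadomide 1200 genes were at least 2-fold higher in U2932 and 1331 in TMD8, against 363 in SUDHL-4 and 1272 in WSU-DLCL2 (5.53%, 6.13%, 1.67% and 5.86% of the genes tested). The numbers at least 2-fold lower were 248 and 531 in U2932 and TMD8, against 176 and 244 in SUDHL-4 and WSU-DLCL2 (1.14%, 2.45%, 0.811% and 1.12%). Across 16184 genes the change was also more closely related to the GC content of the transcripts in SUDHL-4 (Spearman's rho -0.43) than in U2932 (-0.064), TMD8 (-0.065) or WSU-DLCL2 (-0.23); genes are not independent replicates, and the part of GC content in the results was not tested beyond the removal of its trend.

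The difference between types is the mean change of U2932 and TMD8 minus the mean change of SUDHL-4 and WSU-DLCL2, given with its standard error (SE). It was tested in limma, with the cell line as a block and Benjamini-Hochberg adjustment over all genes tested. With 2 lines per type the p-values measure the spread between lines, and there is no replicate within a line. For this difference 0 of 21713 genes (0%) passed an adjusted p of 0.05, and the lowest adjusted p was 0.239. At an unadjusted p under 0.05 there were 2182 genes (10.0%), of which 1066 were higher in the activated type (4.91%) and 1116 lower (5.14%). In 4728 genes both changes of the activated type lay above both of the germinal-centre type (21.8%), and in 4735 they lay below (21.8%). These 2 counts describe how often the 4 values separate over all genes, and counts in gene groups are read against them. A separation of means by at least 1 log2 unit together with such non-overlap was found in 548 genes higher in the activated type (2.52%) and in 308 lower (1.42%).

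The median absolute gap was 0.218 between U2932 and TMD8 and 0.177 between WSU-DLCL2 and SUDHL-4, against a median absolute difference of 0.195 between types. The precision depended on level. The median half-width of the 95% confidence interval of the difference was 1.04 for genes of mean log2 value below 5, 0.576 from 5 to 10 and 0.255 from 10 upwards. Within the activated type 346 genes rose (1.59%) and 106 fell (0.488%) under avadomide in limma at an adjusted p of 0.05. The error of this test was pooled over both types, so the gap between SUDHL-4 and WSU-DLCL2 also decides which genes pass. IRF7 changed by 2.37 and 2.42 in the activated type lines, yet its adjusted p there was 0.113. Its changes in SUDHL-4 and WSU-DLCL2 were -0.06 and 2.88. In the germinal-centre type 0 genes passed in either direction (0%), while 4337 had an unadjusted p under 0.05. Passing in 1 type and not in the other is not a difference between types, for which only the test above counts.

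**Figure D1:**
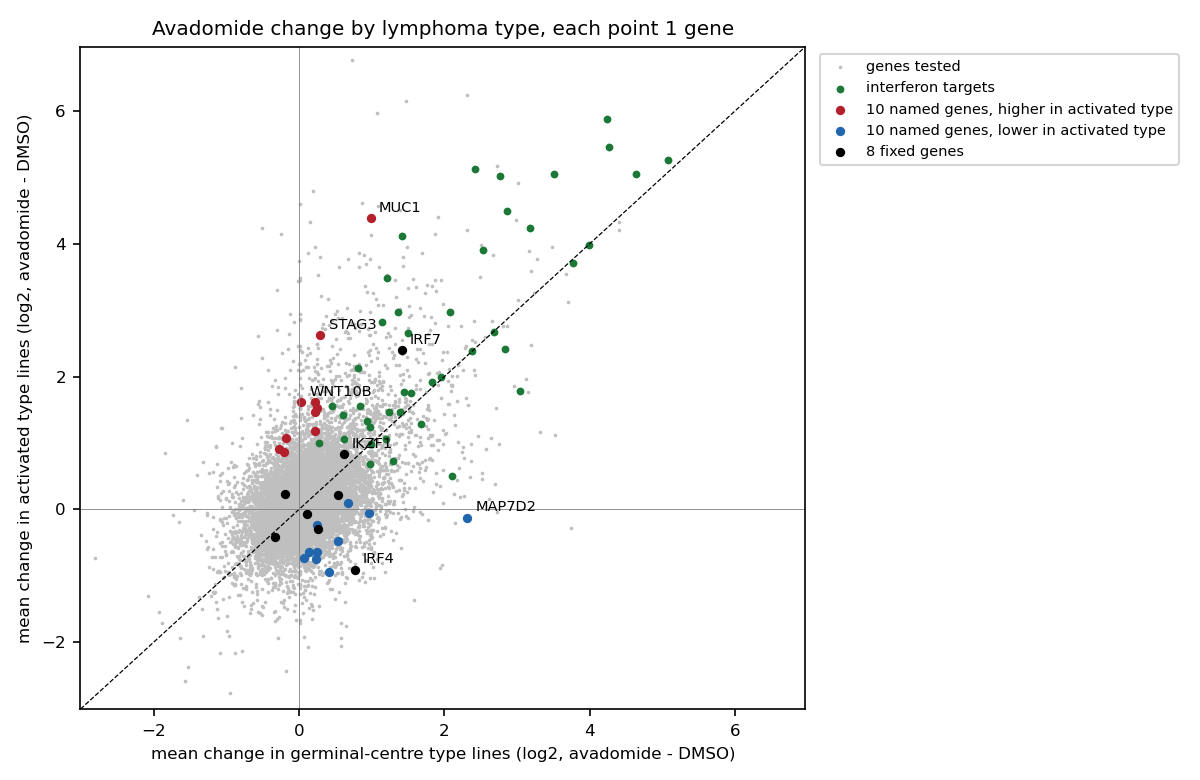
Each point is 1 of 21713 genes, with the mean log2 change under avadomide of the activated type lines on the vertical axis and of the germinal-centre type lines on the horizontal axis; the dashed line marks equal change. Coloured points are the interferon targets (green), the 10 genes named on each side (red and blue) and the 8 genes chosen by name (black). MUC1 and STAG3 lie furthest above the line among the named genes and MAP7D2 furthest below it.

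No gene passed the adjusted threshold in the 8 libraries, so the 10 genes described for each direction are those of lowest p among non-overlapping genes with a gene symbol and a mean log2 value of at least 5. MUC1 had the lowest p. It encodes a heavily glycosylated membrane mucin that is often raised in blood and epithelial cancers. Its log2 values under avadomide were 10.20 in U2932, 10.85 in TMD8, 6.54 in SUDHL-4 and 5.56 in WSU-DLCL2, against DMSO values of 5.81, 6.46, 5.79 and 4.34 in the same order. The changes were 4.39 and 4.39 in the activated type lines, against 0.75 and 1.22 in the germinal-centre type lines. All 4 lines had higher values with avadomide, and the changes of the types did not overlap. The difference was 3.40 ± 0.23 (SE), a 10.6-fold larger change, with a 95% interval from 2.82 to 3.99 and an adjusted p of 0.239. Under lenalidomide the MUC1 changes were smaller in the same order, 1.87 and 1.92 against 0.09 and 0.38.

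TRIM46, which encodes a microtubule-organising protein of neurons, is the neighbour of MUC1 on chromosome 1. In GENCODE v29 (GRCh38), TRIM46 is at chr1:155173787-155184971 on the plus strand and MUC1 at chr1:155185824-155192916 on the minus strand, with 852 bases between them, and a further annotated gene spans both. Use of strand in counting is not stated, and a share of reads from beyond the end of MUC1 in TRIM46 was not tested. The TRIM46 changes were 0.96 and 1.20 in the activated type lines, against -0.25 and -0.13 in the germinal-centre type lines, a difference of 1.26 ± 0.14 (SE).

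STAG3, a meiotic cohesin subunit, had the second largest difference of these 10. Its log2 values under avadomide were 11.54 in U2932 and 10.55 in TMD8, against 9.31 and 7.53 with DMSO. In SUDHL-4 and WSU-DLCL2 they were 9.92 and 9.54 with avadomide, against 9.42 and 9.44 with DMSO. The changes of 2.23 and 3.02 in the activated type and 0.50 and 0.09 in the germinal-centre type did not overlap, with a difference of 2.33 ± 0.30 (SE, adjusted p = 0.359). STAG3 overlaps PVRIG and CASTOR3 in the annotation, and reads of these genes may be shared.

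The other 7 genes with larger changes in the activated type had differences between 0.96 and 1.59. WNT10B, a secreted Wnt ligand, had changes of 1.61 and 1.62 in the activated type lines, against -0.11 and 0.16 in the germinal-centre type lines. ZNF385A, a zinc finger protein that binds RNA and p53, had changes of 1.50 and 1.74 against 0.36 and 0.06. HIP1, a clathrin adaptor protein of endocytosis, had 1.45 and 1.48 against 0.39 and 0.04, and GIPC1, a scaffold of membrane trafficking, had 1.56 and 1.49 against 0.04 and 0.44. NQO1, a quinone reductase of the oxidative stress response, had 1.11 and 1.26 against 0.22 and 0.21. FLNA and SPON2 had changes of opposite sign in the 2 types. FLNA, which encodes the actin crosslinker filamin A, was abundant, with log2 values of 15.89 and 15.42 under avadomide and 15.20 and 14.38 with DMSO in the activated type lines, against 14.29 and 14.46 under avadomide and 14.47 and 14.69 with DMSO in the germinal-centre type lines. Its difference was 1.06 ± 0.13 (SE). SPON2, a secreted matrix protein, had changes of 0.86 and 0.96 against -0.20 and -0.35.

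**Figure D2:**
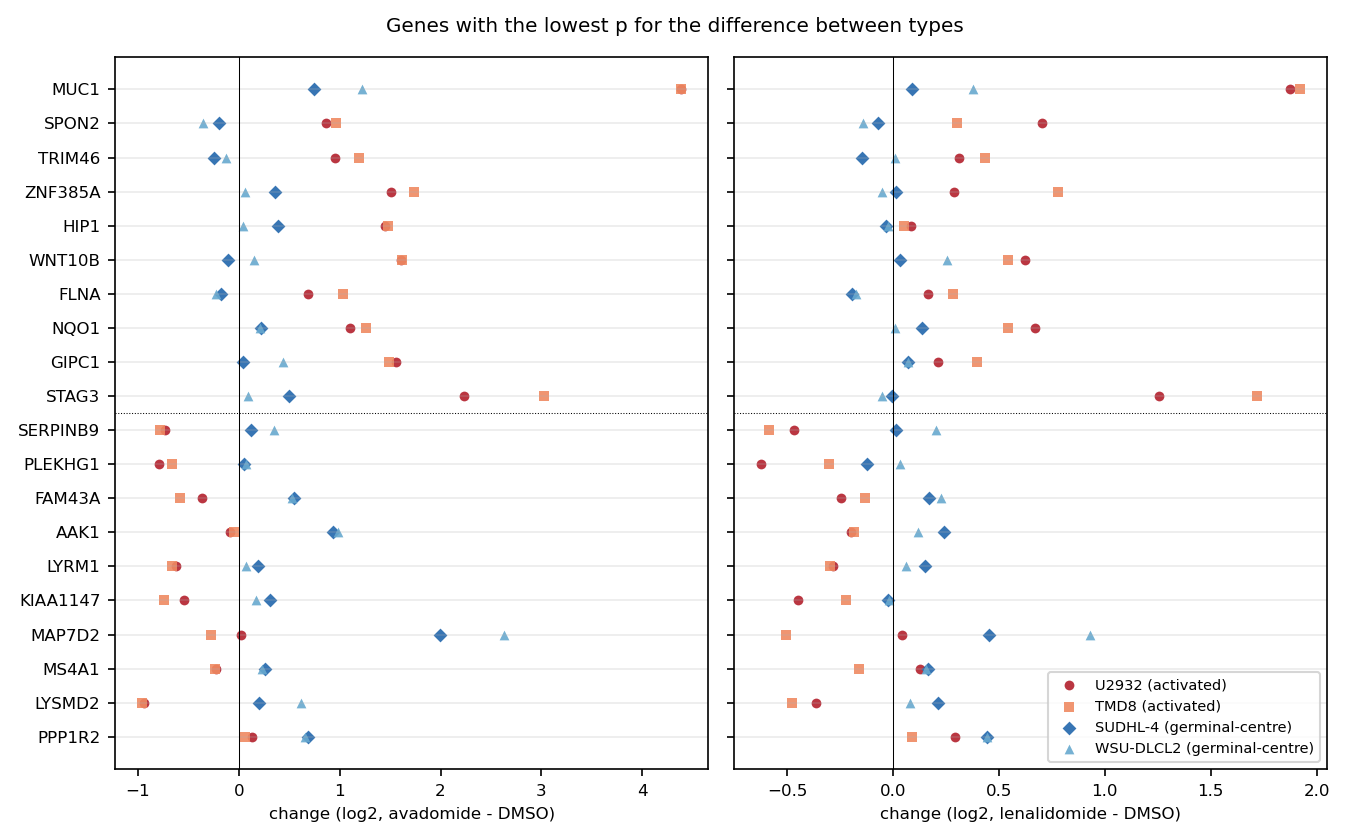
Log2 change of the 20 named genes in each line under avadomide (left) and lenalidomide (right), 1 point per line, activated type in red and orange and germinal-centre type in blues; the horizontal axes differ in range. Above the dotted line the red and orange points lie to the right of the blue ones under avadomide, and below it to the left, as the naming rule requires; MUC1 under avadomide has both activated type lines at 4.39.

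Among the 10 genes with smaller or more negative changes in the activated type, SERPINB9 had the lowest p. It encodes an inhibitor of granzyme B that protects cells from the granules of killer lymphocytes, and lies at chr6:2887266-2903280 on the minus strand. Its log2 values under avadomide were 12.53 in U2932, 11.32 in TMD8, 13.70 in SUDHL-4 and 14.41 in WSU-DLCL2, against DMSO values of 13.26, 12.09, 13.58 and 14.06 in the same order. The changes were -0.73 and -0.78 in the activated type lines, against 0.12 and 0.35 in the germinal-centre type lines, so the signs were opposite in the 2 types. The difference was -0.99 ± 0.10 (SE), with an adjusted p of 0.359. Under lenalidomide the changes were -0.47 and -0.59 against 0.01 and 0.20.

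MS4A1, which encodes the B cell antigen CD20 and lies at chr11:60455752-60470760 on the plus strand, had small but even changes. They were -0.23 and -0.24 in the activated type lines, against 0.26 and 0.23 in the germinal-centre type lines, from log2 values of 16.49 to 17.24 in all 8 libraries. The difference was -0.48 ± 0.06 (SE), with a 95% interval from -0.64 to -0.32 and an adjusted p of 0.359. Under lenalidomide the MS4A1 difference was -0.18, from changes of 0.13 and -0.16 against 0.16 and 0.15.

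MAP7D2, a microtubule-binding protein, had the largest difference of this direction, -2.44 ± 0.31 (SE), from changes of 0.02 and -0.27 in the activated type lines against 1.99 and 2.63 in the germinal-centre type lines. LYSMD2, a protein with a LysM domain, had changes of -0.94 and -0.96 against 0.20 and 0.62, and LYRM1, a small protein of the LYR family, of -0.63 and -0.66 against 0.19 and 0.07. AAK1, a kinase of clathrin-coated vesicles, had -0.08 and -0.04 against 0.94 and 0.99, so its separation came from the germinal-centre type lines. PPP1R2, an inhibitory subunit of protein phosphatase 1, had 0.13 and 0.06 against 0.68 and 0.66. The remaining FAM43A, PLEKHG1 and KIAA1147 had differences of -1.02, -0.79 and -0.88. LYRM1, LYSMD2 and AAK1 overlap other protein-coding genes in the annotation.

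Of the drug target and its substrates, CRBN had changes of -0.14 and 0.01 in the activated type lines, against 0.20 and 0.02 in the germinal-centre type lines. IKZF1 transcripts had higher values with avadomide in all 4 lines, with changes of 1.02 and 0.63 against 0.39 and 0.84, and the types overlapped (difference 0.21 ± 0.20, SE). IKZF3 had changes of 0.25 and 0.18 against 0.44 and 0.64, a difference of -0.33 ± 0.09 (SE, unadjusted p = 0.0171, adjusted p = 0.457). IKZF2, the related factor Helios, rose in the activated type with changes of 0.90 and 1.04 (adjusted p = 0.0274), against 0.84 and 0.77 in the germinal-centre type. Of the 15 genes of the ligase and its substrates, 2 (13.3%) were non-overlapping with the activated type higher and 6 (40%) with it lower. Among all genes the share was 21.8% each way. The list medians were 0.034 and 0.021 against 0.145 and 0.026. These are transcripts; the drug acts on the proteins.

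IRF4, at chr6:391739-411447 on the plus strand, differed in sign between the types. Its log2 values under avadomide were 14.03 in U2932, 15.35 in TMD8, 8.13 in SUDHL-4 and 11.17 in WSU-DLCL2, against DMSO values of 14.71, 16.49, 8.11 and 9.66 in the same order. Both activated type lines had lower values with avadomide (-0.68 and -1.14), SUDHL-4 was level (0.02) and WSU-DLCL2 had a higher value (1.51). The levels themselves stayed far apart, with both activated type lines above both germinal-centre type lines under either treatment. The difference in change was -1.67 ± 0.49 (SE), with a 95% interval from -2.94 to -0.41, an unadjusted p of 0.0191 and an adjusted p of 0.457. It was -0.93 without WSU-DLCL2 and -2.42 without SUDHL-4. Under lenalidomide the changes were -0.27 and -0.30 against -0.03 and 0.50.

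The other genes chosen by name overlapped between the types. MYC, the growth regulator, had changes of -0.37 and -0.45 against -0.15 and -0.52. BCL6, the repressor that defines germinal-centre B cells, had changes of -0.25 and 0.71 against 0.01 and -0.41, and PRDM1, the plasma cell regulator Blimp-1, of 0.16 and -0.75 against 0.47 and 0.04. IRF7, which amplifies interferon production, had changes of 2.37 and 2.42 in the activated type lines, against -0.06 in SUDHL-4 and 2.88 in WSU-DLCL2. Its difference of 0.99 ± 0.93 (SE) was -0.48 without SUDHL-4 and 2.46 without WSU-DLCL2.

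Interferon targets were the group with the largest changes, and they separated SUDHL-4 from the other lines more than they separated the types. Of 42 tested, 37 in U2932, 34 in TMD8, 10 in SUDHL-4 and 41 in WSU-DLCL2 were at least 2-fold higher with avadomide. The list medians were 2.26 and 1.97 in the activated type lines, against 0.48 in SUDHL-4 and 2.87 in WSU-DLCL2. The median gap within the germinal-centre type, 2.36, was larger than the median difference between types, 0.41, whose sign depended on the line. Without WSU-DLCL2 the median difference was 1.90, and without SUDHL-4 it was -0.70. Both activated type changes lay above both germinal-centre type changes in 4 of 42 genes, OAS1, OAS3, ISG15 and GBP4, and below in 0. That is 9.52% and 0%, against 21.8% and 21.8% of all genes tested. Many interferon targets carry an interferon-stimulated response element near their start. The promoters of OAS3 and ISG15, which separated by type, of BCL2A1, an NF-kB target described further on, and of MUC1 are shown to set the 2 kinds of gene side by side. Each is the stretch of 300 bases around the gene start in RefSeq (GRCh38.p14), most of it before the start. Capitals mark, on either strand, matches to the element core (GAAA, any 2 bases, GAAA) or to the composite of an ETS and an IRF site (GGAA, any 2 bases, GAAA), which can overlap.
OAS3: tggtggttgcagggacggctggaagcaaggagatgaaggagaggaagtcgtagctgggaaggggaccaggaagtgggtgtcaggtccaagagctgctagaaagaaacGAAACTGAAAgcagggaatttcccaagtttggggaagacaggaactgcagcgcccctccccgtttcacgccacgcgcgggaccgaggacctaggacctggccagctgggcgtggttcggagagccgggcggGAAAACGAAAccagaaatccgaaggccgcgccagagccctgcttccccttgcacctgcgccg
ISG15: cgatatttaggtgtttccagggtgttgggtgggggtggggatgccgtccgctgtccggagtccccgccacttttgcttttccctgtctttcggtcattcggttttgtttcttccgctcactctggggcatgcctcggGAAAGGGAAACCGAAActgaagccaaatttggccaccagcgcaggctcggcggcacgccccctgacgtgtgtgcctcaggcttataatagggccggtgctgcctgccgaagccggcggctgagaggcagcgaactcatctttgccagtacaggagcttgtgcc
BCL2A1: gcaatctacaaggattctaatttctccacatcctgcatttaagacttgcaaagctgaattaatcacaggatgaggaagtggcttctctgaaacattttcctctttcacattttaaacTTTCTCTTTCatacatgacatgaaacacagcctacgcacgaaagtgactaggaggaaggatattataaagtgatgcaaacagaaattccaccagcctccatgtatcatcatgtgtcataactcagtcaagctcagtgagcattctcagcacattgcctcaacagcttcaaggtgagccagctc
MUC1: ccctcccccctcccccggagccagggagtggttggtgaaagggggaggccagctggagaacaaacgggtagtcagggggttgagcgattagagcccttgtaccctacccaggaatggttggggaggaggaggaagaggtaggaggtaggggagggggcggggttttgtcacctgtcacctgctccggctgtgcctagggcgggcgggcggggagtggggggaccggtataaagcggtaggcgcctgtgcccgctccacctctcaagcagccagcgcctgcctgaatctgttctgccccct
The OAS3 promoter is at chr12:112938224-112938523 on the plus strand and that of ISG15 at chr1:1013247-1013546 on the plus strand, with 2 matches each to the core, which overlap in ISG15. The BCL2A1 promoter is at chr15:79971147-79971446 on the minus strand, with 1 match on the opposite strand, and the MUC1 promoter at chr1:155192866-155193165 on the minus strand, with 0 matches. Of the interferon targets with a promoter in the table, 28 of 37 held the core (75.7%), against 996 of 27305 promoters (3.65%), and 11 of 37 held the composite (29.7%), against 776 of 27305 (2.84%). Among the 548 and 308 genes separated by at least 1 log2 unit, the core was in 14 of 270 promoters of those higher in the activated type (5.19%) and in 3 of 114 of those lower (2.63%). In all promoters of genes tested it was in 337 of 10977 (3.07%). The 14 include the interferon targets OAS3, ISG15 and GBP4. Of the named genes, 0 of 8 promoters on each side held either motif. A match describes the letters only and shows no binding.

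OAS3, an enzyme that senses double-stranded RNA, had log2 values under avadomide of 13.88 in U2932 and 14.89 in TMD8, against 11.37 and 10.43 with DMSO. In SUDHL-4 and WSU-DLCL2 it had 7.77 and 15.01 with avadomide, against 7.53 and 12.83 with DMSO. The changes were 2.51 and 4.46 in the activated type, against 0.23 and 2.18 in the germinal-centre type, and the nearest values of the 2 types, U2932 and WSU-DLCL2, were close. The difference was 2.28 ± 0.87 (SE, adjusted p = 0.487). ISG15, a ubiquitin-like modifier, had changes of 2.31 and 1.94 against -0.16 and 1.77. GBP4, a guanylate-binding protein, had changes of 4.55 and 5.72 against 0.75 and 4.10. By contrast, MX2, an antiviral GTPase, had changes of 0.42 and 0.59 against 0.52 and 3.70, and IFIT1, which binds viral RNA, of 4.79 and 5.74 against 2.82 and 7.34. These last genes had their largest change in WSU-DLCL2. PLSCR1, a phospholipid scramblase, was the interferon target that rose in the activated type by the test (mean change 1.46, adjusted p = 0.0497). The error of that test is pooled over both types.

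**Figure D3:**
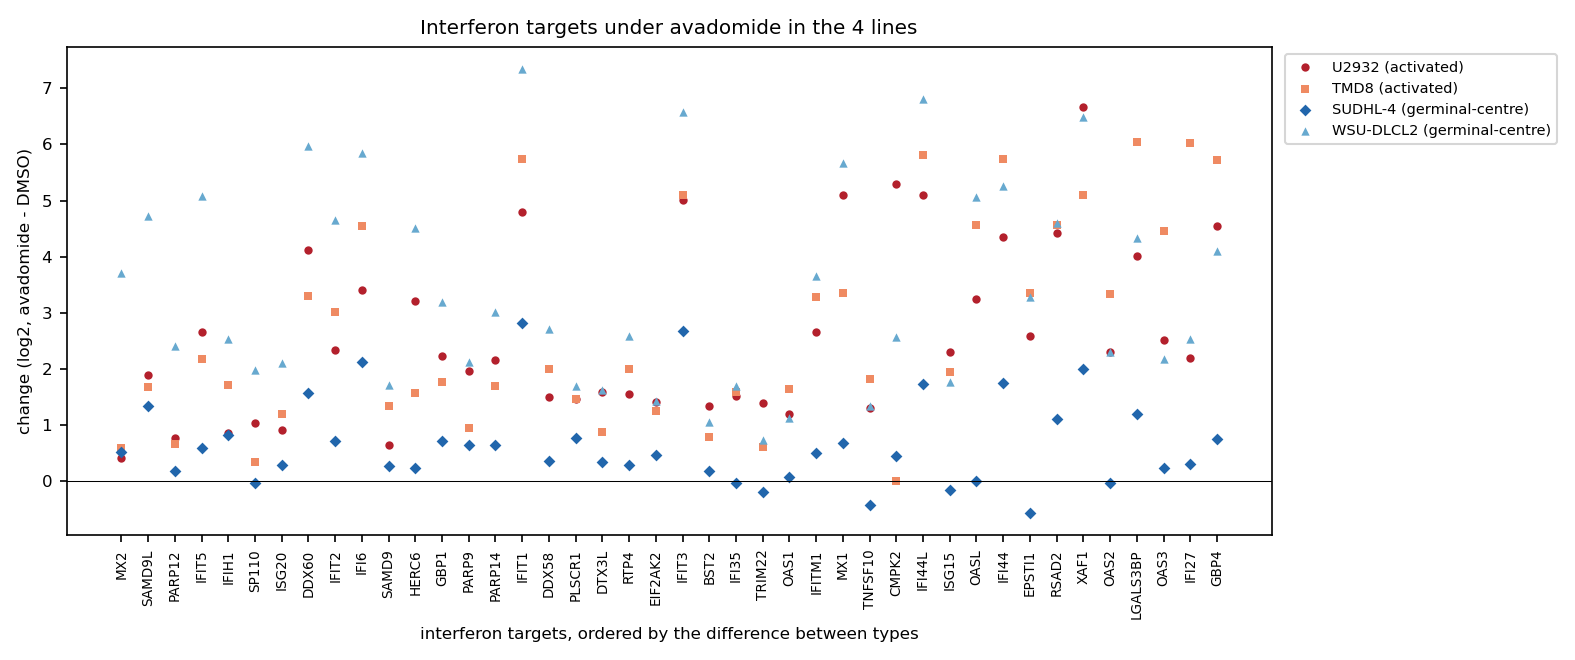
Log2 change under avadomide of the 42 interferon targets (horizontal axis, ordered by the difference between types) in each line, activated type in red and orange and germinal-centre type in blues. SUDHL-4 (diamonds) is lowest for most genes and WSU-DLCL2 (triangles) is often highest, so for many genes the germinal-centre type lines enclose the activated type lines.

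IRF9 and USP18, of the interferon signalling list, had their smallest change in SUDHL-4 and their largest in WSU-DLCL2. IRF9, a transcription factor of the pathway, had changes of 1.20 and 0.94 against -0.04 and 1.26, and USP18, which dampens the pathway, of 3.11 and 3.19 against -0.34 and 6.36. The non-overlapping genes of this list had differences between -0.59 and 0.26. IRF3 and TYK2 were higher in the activated type, and IFNGR1, IFNGR2, IFNAR1, IFNAR2, JAK1 and IRF8 lower. These 2 and 6 of 18 genes are 11.1% and 33.3%, against 21.8% each way among all genes. IFNGR1, the ligand-binding chain of the interferon gamma receptor, had 0.09 and -0.19 against 0.44 and 0.64. With DMSO the median log2 level of the interferon targets was 8.31 and 9.90 in the activated type lines, against 6.14 in SUDHL-4 and 6.55 in WSU-DLCL2.

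Antigen presentation genes did not pass the test of the difference. Of 13 MHC class II genes, 5 (38.5%) were non-overlapping with the activated type higher and 0 with it lower. Among all genes the share was 21.8% each way. The list medians were 0.21 and 0.90 against -0.18 and 0.34, a median difference of 0.47. CD74, the invariant chain of class II molecules, had log2 values under avadomide of 16.88 and 17.21 in U2932 and TMD8, against 16.72 and 16.86 with DMSO. In SUDHL-4 and WSU-DLCL2 it had 17.09 and 17.12 with avadomide, against 17.40 and 17.33 with DMSO. Its changes of 0.16 and 0.35 against -0.31 and -0.21 thus had opposite signs, with a difference of 0.51 ± 0.09 (SE, adjusted p = 0.423). CIITA, the master regulator of class II genes, had changes of 0.43 and 0.74 against -0.37 and 0.34. HLA-DOA, HLA-DPB1 and HLA-DQB1 were the other 3, with the larger change in TMD8 in each. Without TMD8 the median difference of the list was 0.14.

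Of 15 MHC class I genes, 3 were non-overlapping with the activated type higher, HLA-E, HLA-F and the immunoproteasome subunit PSMB8, and 0 with it lower. This is 20% and 0%, against 21.8% each way among all genes. HLA-E, a ligand of inhibitory receptors on killer cells, rose in the activated type (adjusted p = 0.0274), with changes of 0.56 and 0.61, against 0.05 and 0.11 in the germinal-centre type. Its difference was 0.50 ± 0.07 (SE, adjusted p = 0.423). The median difference of the class I list was 0.036, and 0.31 without WSU-DLCL2. HLA genes resemble each other closely, and reads may be divided among them. MICA, a stress-induced ligand of the activating receptor NKG2D, rose in the activated type (adjusted p = 0.0396) by 0.79 and 1.22, against 0.25 and 0.14. In the list of 24 immune ligands and chemokines, 3 (12.5%) were non-overlapping with the activated type higher and 2 (8.33%) lower. PDCD1LG2, the checkpoint ligand PD-L2, had 0.54 and 2.15 against 0.00 and 0.03. The interferon-induced chemokines had their smallest change in SUDHL-4. CXCL10, which attracts activated T cells, had changes of 3.85 and 2.67 against 0.97 and 5.50, and CXCL9 of 4.59 and 2.41 against 0.73 and 4.26.

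**Figure D4:**
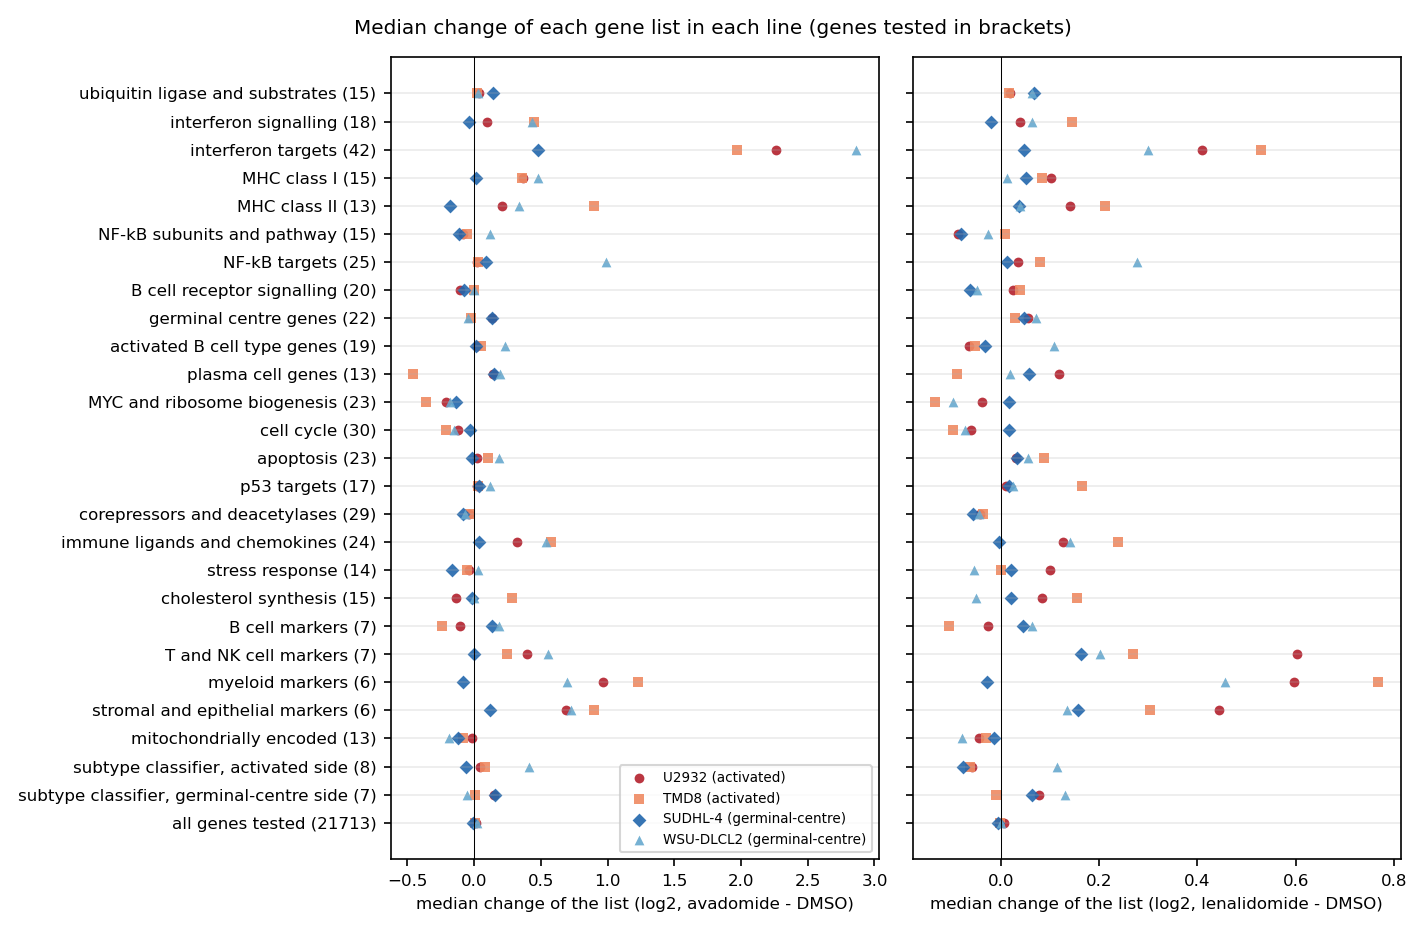
Median log2 change of each of the 26 gene lists, and of all genes tested, in each line under avadomide (left) and lenalidomide (right); numbers in brackets are genes tested and the horizontal axes differ in range. Under avadomide the interferon targets are furthest to the right in 3 lines, at 2.26, 1.97 and 2.87, with SUDHL-4 at 0.48, and the NF-kB targets of WSU-DLCL2 are at 0.99, against 0.091 or less in the other lines.

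The NF-kB targets differed mostly through WSU-DLCL2. Of 25 tested, 6 were non-overlapping with the activated type lower and 1, LTB, with it higher (24.0% and 4.00%, against 21.8% each way among all genes). The list medians were 0.026 and 0.030 in the activated type lines, against 0.091 in SUDHL-4 and 0.99 in WSU-DLCL2, and the median difference was -0.47. It was -0.059 without WSU-DLCL2, in which 12 of the 25 genes were at least 2-fold higher with avadomide, against 3, 1 and 1 in U2932, TMD8 and SUDHL-4. BCL2A1 encodes an antiapoptotic BCL2 relative. Its log2 values under avadomide were 13.47 in U2932, 12.35 in TMD8, 9.86 in SUDHL-4 and 12.92 in WSU-DLCL2, against DMSO values of 14.19, 13.70, 9.45 and 11.28 in the same order. The changes were -0.72 and -1.35 in the activated type, against 0.42 and 1.64 in the germinal-centre type, a difference of -2.06 ± 0.44 (SE, adjusted p = 0.427). CCL22, a chemokine that attracts regulatory T cells, fell in the activated type (-1.29 and -2.04, adjusted p = 0.0497), against -0.33 and 0.23 in the germinal-centre type. IER3, an early response gene, had -0.77 and -0.66 against -0.16 and 0.80, and CD83, a maturation marker, 0.01 and -0.38 against 0.36 and 1.19. NFKBIZ and CD44 completed the 6.

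Among the 15 NF-kB subunits and pathway genes, 5 (33.3%) were non-overlapping with the activated type lower and 2 (13.3%) with it higher. For all genes the share was 21.8% each way. RELB, a subunit of the noncanonical pathway, had changes of -0.59 and -0.41 against -0.12 and 0.19, NFKB2 of -0.62 and -0.38 against -0.12 and 0.73, and NFKB1 of -0.28 and -0.50 against -0.15 and 0.19. RELA, the main activating subunit, had -0.05 and 0.00 against -0.11 and -0.08. MYD88, the adaptor of Toll-like receptors, had 0.27 and 0.62 against 0.02 and 0.18. The 19 genes typical of the activated type had 8 (42.1%) non-overlapping with that type lower and 3 (15.8%) higher. IL16, a lymphocyte chemoattractant, fell in the activated type (-0.76 and -0.85, adjusted p = 0.0274), against -0.32 and -0.23. TNFRSF13B, the receptor TACI, had changes of 0.06 and -1.22 against 0.70 and 2.11, a difference of -1.98 ± 0.61 (SE, adjusted p = 0.460). PIM1, a kinase, FOXP1, a transcription factor, and CREB3L2 were among the others lower in the activated type.

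**Figure D5:**
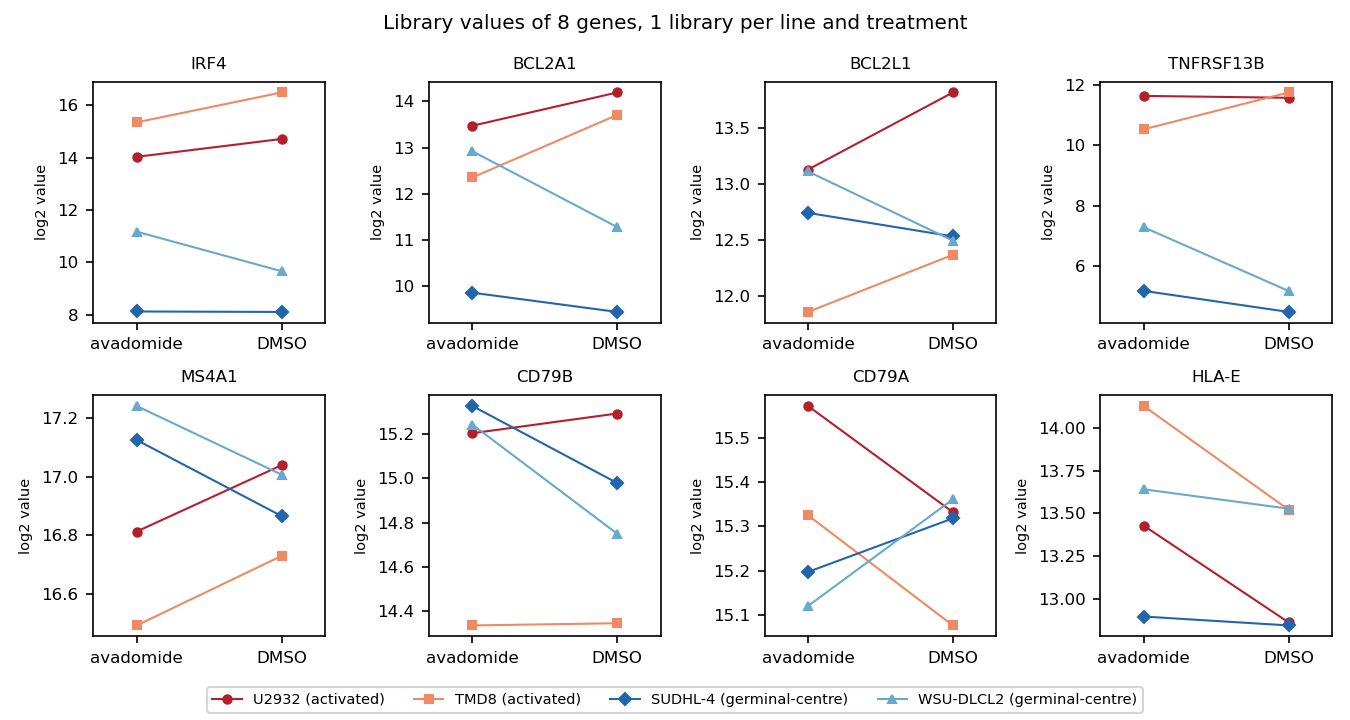
Log2 values of 8 genes in the avadomide and DMSO libraries, with a line joining the 2 libraries of each cell line, activated type in red and orange and germinal-centre type in blues; vertical axes differ between panels and do not start at 0. For IRF4, BCL2A1, BCL2L1 and MS4A1 the activated type lines are lower under avadomide than with DMSO and the germinal-centre type lines level or higher; CD79A goes the other way.

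Among 7 B cell markers, 5 (71.4%) were non-overlapping with the activated type lower and 1 (14.3%), CD79A, with it higher. For all genes the share was 21.8% each way. The list medians were -0.11 and -0.24 in the activated type lines, against 0.13 and 0.19 in the germinal-centre type lines, and the median difference of -0.33 stayed between -0.44 and -0.33 when any line was left out. Its sign could not change, because 5 of the 7 genes do not overlap between the types. The signalling chains of the B cell receptor, CD79A and CD79B, had opposite differences. CD79A had changes of 0.24 and 0.25 in the activated type, against -0.12 and -0.24 in the germinal-centre type, a difference of 0.42 ± 0.07 (SE). CD79B had changes of -0.09 and -0.01 against 0.35 and 0.49, a difference of -0.47 ± 0.08 (SE). The adjusted p of both was 0.423. EBF1 and PAX5, transcription factors of B cell identity, had -0.13 and -0.38 against 0.21 and 0.19, and -0.11 and -0.03 against 0.13 and 0.39. CD22, an inhibitory coreceptor, had -0.39 and -0.46 against 0.00 and -0.26. In the list of 20 B cell receptor signalling genes, 3 (15%) were non-overlapping with the activated type higher and 4 (20%) with it lower. The 3 were CD79A and the kinases SYK and BTK. EGR2, an early response factor, had -0.81 and -2.07 against -0.27 and 0.17. In 22 germinal-centre genes the counts were 4 (18.2%) and 2 (9.09%). RGS13, a regulator of G protein signalling, had 0.06 and -0.52 against 0.72 and 0.53, and S1PR2, a receptor that confines cells to the germinal centre, 0.44 and 0.23 against -0.04 and -0.06. In 13 plasma cell genes the counts were 2 (15.4%) and 4 (30.8%). XBP1, a driver of secretion, rose in the activated type (0.67 and 0.67, adjusted p = 0.0274), against 0.90 and 0.96 in the germinal-centre type.

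The median growth gene had a lower value with avadomide in all 4 lines. Of 23 MYC and ribosome biogenesis genes, 12 (52.2%) were non-overlapping with the activated type lower and 0 with it higher. For all genes the share was 21.8% each way. The list medians were -0.21 and -0.36 in the activated type lines, against -0.13 and -0.18 in the germinal-centre type lines, and the median difference was -0.11. NPM1, a nucleolar chaperone, had changes of -0.23 and -0.34 against 0.16 and -0.02. ODC1, which makes polyamines, and the ribosome assembly factors NOP16 and RRP9 fell in the activated type, with mean changes of -0.43, -0.42 and -0.43 (adjusted p = 0.0497, 0.0448 and 0.0435). Of 30 cell cycle genes, 11 (36.7%) were non-overlapping with the activated type lower and 2 (6.67%) higher. CDKN1A, the inhibitor p21, was 1 of the 11: it had changes of 0.43 and 0.86 in the activated type lines, against 1.34 and 2.14 in the germinal-centre type lines. CDK1, the mitotic kinase, had -0.22 and -0.13 against 0.40 and 0.13. Of 17 p53 targets, 7 (41.2%) were non-overlapping with the activated type lower and 1 (5.88%) higher. AEN, a nuclease, fell in the activated type (-0.42 and -0.50, adjusted p = 0.0396), against -0.10 and -0.09.

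In the apoptosis list of 23 genes, 5 (21.7%) were non-overlapping with the activated type higher and 4 (17.4%) with it lower. For all genes the share was 21.8% each way. BCL2L1, which encodes the survival protein BCL-XL, had log2 values under avadomide of 13.13 and 11.86 in U2932 and TMD8, against 13.82 and 12.37 with DMSO. In SUDHL-4 and WSU-DLCL2 it had 12.74 and 13.11 with avadomide, against 12.53 and 12.49 with DMSO. Its changes of -0.69 and -0.51 against 0.21 and 0.62 had opposite signs, with a difference of -1.02 ± 0.16 (SE, adjusted p = 0.423). BMF, a proapoptotic BH3-only protein, rose in the activated type (0.89 and 1.44, adjusted p = 0.0451), against 0.35 and 0.78. BCL2 and MCL1, further survival proteins, overlapped between the types, with 0.44 and -0.20 against 0.10 and 0.06, and 0.11 and 0.37 against 0.18 and 0.28.

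The study's title names deacetylase inhibitors as partners of these drugs. The medians of 29 corepressor and deacetylase genes were -0.037 and -0.028 against -0.086 and -0.069. Of the 29, 8 (27.6%) were non-overlapping with the activated type higher and 4 (13.8%) lower, against 21.8% each way among all genes. KDM1A, a histone demethylase, had changes of 0.29 and 0.39 against -0.14 and -0.35, a difference of 0.58 ± 0.10 (SE, adjusted p = 0.423). HDAC9, a class IIa deacetylase, rose in the activated type (0.59 and 0.68, adjusted p = 0.0315), against 0.27 and 0.28. HDAC1, HDAC2 and HDAC3, targets of deacetylase inhibitors, had changes between -0.29 and 0.11 in all 4 lines. In the stress response list of 14 genes, 5 (35.7%) were non-overlapping with the activated type higher and 4 (28.6%) lower. PDIA4, a protein-folding enzyme, had 0.04 and -0.10 against -0.46 and -0.58, and DDIT4, an inhibitor of mTOR signalling, 0.40 and 0.56 against -0.30 and 0.04. Of 15 cholesterol synthesis genes, 2 (13.3%) were non-overlapping with the activated type higher. Of 13 mitochondrially encoded genes, 7 (53.8%) were non-overlapping with it higher and 1 (7.69%) lower, with changes between -0.25 and 0.08.

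Few genes had changes of opposite sign in the types with at least 0.5 log2 units in all 4 lines. Both activated type lines were higher and both germinal-centre type lines lower with avadomide by that much in 5 genes (0.0230%), and the reverse held in 11 (0.0507%). Those with a gene symbol were mostly low. ITGAM, an integrin of myeloid cells, had changes of 1.16 and 2.49 against -1.02 and -0.58, with its highest log2 value, 5.83, in TMD8 under avadomide. ZNF843, a zinc finger gene, had changes of 3.50 and 1.72 against -0.53 and -0.59. PHEX, an endopeptidase known from phosphate handling, had changes of -0.83 and -1.96 against 0.57 and 0.69, and FOXI1, a forkhead factor, of -0.93 and -2.59 against 0.53 and 0.76. Their adjusted p-values were between 0.427 and 0.457. PKLR and CISH, which were higher in the activated type, and PTCRA, IGLV1-40 and DDX25, which were lower, had log2 values below 7 in every library. DDX25 ran from only 0.26 to 1.77 and PKLR from 0.56 to 2.99. In SUDHL-4 and WSU-DLCL2, FOXI1 was at 0.90 and 1.11 with avadomide, against 0.37 and 0.36 with DMSO. PHEX was at 1.97 and 2.62 there, against 1.39 and 1.93. Changes at such low levels are imprecise. PKLR and CISH overlap other protein-coding genes, and PHEX an antisense gene.

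A fit to all 12 libraries, which estimates the error from all 3 treatments, gave other calls. Lenalidomide had smaller changes, which lower the pooled spread between lines. In the separate fits the median SE of the difference was 0.154 for lenalidomide, against 0.224 for avadomide. The error of the avadomide difference may therefore be understated in the larger fit, and its calls are not added support. In that fit 144 of 22528 genes passed an adjusted p of 0.05 for the avadomide difference, 102 higher in the activated type (0.453%) and 42 lower (0.186%). All 144 were non-overlapping, against 21.8% each way of the 21713 genes tested in 8 libraries, but passing the test itself selects for such separation. The 144 included all 20 genes named above except MS4A1. From the lists they included KDM1A, CD79A, HLA-E and PDIA4 (higher) and BCL2L1 and CD79B (lower), with adjusted p from 0.0383 to 0.0460 in that limma fit. Leaving out U2932 gave 25 genes in the 8-library design, 5 of them shared with the 144, and leaving out any other line gave 0. Some of the largest differences among the 144, picked after their values were seen, were in genes that were low with DMSO. A2M, a secreted protease inhibitor, had log2 values under avadomide of 7.16 in U2932, 10.83 in TMD8, 2.45 in SUDHL-4 and 2.59 in WSU-DLCL2. With DMSO they were 1.11, 4.57, 1.06 and 1.04. IL17RC, a receptor chain for interleukin 17, had 7.03, 8.60, 2.35 and 2.51 with avadomide, against 2.26, 4.18, 2.59 and 2.25 with DMSO. Its changes of 4.77 and 4.42 in the activated type stood against -0.24 and 0.26 in the germinal-centre type. TLR3, a sensor of double-stranded RNA, had changes of 3.43 and 3.64 against -0.12 and 0.65. On the other side RASGRF2, an exchange factor for small GTPases, had changes of -1.28 and -1.63 against 0.38 and -0.02.

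Lenalidomide gave smaller differences for most of the genes named below, against the same DMSO libraries. Of 21638 genes, 0 passed an adjusted p of 0.05 for the difference between types (0%), and 1554 had an unadjusted p under 0.05 (7.18%). In the activated type 324 genes rose (1.50%) and 86 fell (0.397%), and in the germinal-centre type 112 rose (0.518%) and 3 fell (0.0139%). Here too the error was pooled over both types, and the counts depended on the processing. The germinal-centre type gave 115 genes, and 2 with the trends of GC and length taken out. It gave 29 with quantile normalization and 243 at a mean log2 value of at least 5. The activated type gave 410, then 493, 384 and 424 in the same order. With no filter, no intensity trend or no cell line block both types gave 0. In 12 libraries the germinal-centre type gave 0 and the activated type 6. The median interferon target had changes of 0.41 and 0.53 in the activated type lines, against 0.046 in SUDHL-4 and 0.30 in WSU-DLCL2. There 14 of 42 were non-overlapping with the activated type higher and 2 with it lower, against 4229 (19.5%) and 4008 (18.5%) of all genes. STAG3 had lenalidomide changes of 1.25 and 1.72 against 0.00 and -0.05, and WNT10B 0.62 and 0.54 against 0.03 and 0.26. HIP1 was near 0 under lenalidomide, with 0.09 and 0.05 against -0.04 and -0.02. BCL2A1 had -0.05 and -0.49 against 0.24 and 0.50, and BCL2L1 -0.26 and 0.01 against 0.05 and 0.21.

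Many markers of other cell types were low in these lines, but some were high. Of 12 T and NK cell markers, CD3D was below 0 in all 8 libraries, and 5 did not reach the level for testing. TRAC, by contrast, had log2 values from 7.77 in TMD8 to 13.04 in WSU-DLCL2, both with DMSO. CD3E reached 6.17 in SUDHL-4 with DMSO, and CD4 9.09 in TMD8 with avadomide. CD4 and TRAC rose in the activated type (2.68 and 2.30, adjusted p = 0.0294; 1.08 and 1.00, adjusted p = 0.0396), against 0.64 and 1.39 and against 0.25 and -0.23 in the germinal-centre type. The summed linear level of the 12 genes was 3177 in U2932 and 43720 in TMD8 with avadomide, against 1377 and 86117 with DMSO; in TMD8 GZMB alone had log2 values of 15.38 and 16.39. In SUDHL-4 and WSU-DLCL2 the sums were 1011 and 7256 with avadomide, against 882 and 8440 with DMSO. Of 10 myeloid markers S100A8 was listed at 0 in every library and 6 were tested. Of these, CD14, LYZ and ITGAM (50%) were non-overlapping with the activated type higher, against 21.8% of all genes. The myeloid sums were 98.2 and 193 with avadomide in the activated type lines, against 70.1 and 55.4 with DMSO, and 113 and 26.3 in the germinal-centre type lines, against 106 and 17.2. Of 11 stromal and epithelial markers 6 were tested. The sums of the 11 were 2488 and 2028.5 against 2301 and 721 in the activated type, and 3572 and 1362 against 3711 and 1474 in the germinal-centre type. Among them DCN reached 11.7 in SUDHL-4 and EPCAM 10.9 in U2932, both with DMSO, and COL1A1 9.99 in TMD8 with avadomide. The part of these genes in the differences between types was not tested.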

How the data were processed

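RNA was sequenced from 4 cell lines, 1 library per line and treatment. The authors deposited 1 table of log2 expression values per gene and library; their transform and normalization are not stated in the labels or file headers. The submitters' processing notes name STAR, Salmon, MACS and hg38 without versions. Of 58684 entries, 28 with symbols turned into dates were left out, and 0 columns lacked a sample. The values were not counts, so depth could not be read from them and counting error could not be estimated.

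Genes reaching a log2 value of 1 in 4 or more libraries of the fit entered limma 3.58.1 (R 4.3.3), run with an intensity trend, with cell line as a block and a treatment by type term, two-sided, at a Benjamini-Hochberg adjusted p of 0.05. The avadomide fit had 2 residual and 5.10 total degrees of freedom. Lines are the pairing factor by the labels: deviations from treatment means correlated at 0.922 to 0.979 where both libraries came from 1 line, against -0.596 to 0.201 otherwise. An exact permutation of 2 lines against 2 cannot give a two-sided p below 0.333. The script was tested on simulated data.

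The lines, the 26 lists (443 genes) and the naming rule were chosen with earlier results of these data known. The rule took 10 genes per direction by lowest p where none passed, up to 5 per direction of opposite change of at least 0.5, 8 genes by name and up to 4 per list. Further list members named beside these were chosen after their values were seen. Gene coordinates are from GENCODE v29. Alternatives were all 12 libraries, no cell line block, other filters, quantile normalization, no intensity trend, removal of the GC and length trend, and each line left out.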

Additional observations from a re-analysis of the deposited data

Results flagged for a closer look

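In 21 of the 37 genes chosen by p, opposite change or name, both lines of 1 type had avadomide changes of 1 sign and both lines of the other type had the opposite sign. The difference between types was tested in limma, and no gene passed the adjusted threshold in the 8 libraries. The naming rule itself selects for such separation, and for part of the genes it requires opposite signs. The share of such signs among all genes tested was not counted, so the 21 of 37 has no background to be read against. Each value is the mean log2 change of the activated type minus that of the germinal-centre type. Genes up in the activated type and down in the germinal-centre type were SPON2 (1.19), TRIM46 (1.26), FLNA (1.06), ZNF843 (3.17), ITGAM (2.63), PKLR (1.82) and CISH (1.31). Genes down in the activated type and up in the germinal-centre type were SERPINB9 (-0.99), PLEKHG1 (-0.79), FAM43A (-1.02), AAK1 (-1.02), LYRM1 (-0.78), KIAA1147 (-0.88), MS4A1 (-0.48) and LYSMD2 (-1.36). Among those selected for opposite change, or by name, were PTCRA (-2.83), FOXI1 (-2.41), PHEX (-2.02), IGLV1-40 (-2.01), DDX25 (-1.96) and IRF4 (-1.67). For AAK1 the activated type changes, -0.08 and -0.04, and for IRF4 the SUDHL-4 change, 0.02, were near 0. Most genes selected for opposite change were low, among them DDX25 and PKLR in every library and FOXI1 in the germinal-centre type lines.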

How the results depend on the processing

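The avadomide difference between types gave 0 genes in the 8 libraries and 144 in all 12; with each line left out it gave 0 to 25, the 25 without U2932, and 0 under the other filters, quantile normalization, no intensity trend and GC removal. The lenalidomide difference gave 0 genes, 1 after quantile normalization and 0 to 217 with a line left out (217 without U2932, 88 without TMD8). The activated type response gave 452 genes, 4306 in 12 libraries, 0 without a filter, 3 without an intensity trend and 300 to 680 with 1 of its own lines left out. It gave 125 without SUDHL-4 and 115 without WSU-DLCL2. The germinal-centre type response gave 0 genes, 2669 in 12 libraries, 0 to 12 with 1 of its lines left out and 366 without TMD8. The lines pair the libraries: with no replicate block the activated type count was 0, and the block changed no other of these counts. Leaving a line out leaves 1 line of its type, assumed to vary like the others. Of 290 alternative values for the 37 genes chosen by p, opposite change or name, 4 changed sign: IRF7 (-0.48), IKZF1 (-0.012) and MYC (0.11) without SUDHL-4, and BCL6 (-0.047) without TMD8. These 4 genes overlapped between the types. In a gene whose types do not overlap, leaving out 1 line cannot change the sign. Most of the 37 were chosen for such separation, so the count of 4 does not measure stability. Of 216 alternative list medians, 26 moved by more than the spread between lines and 36 changed sign. The causes were not tested. GC content and length were known for 76.4% of all genes tested, under the 80% set for removing their trend, so it was removed over genes with a symbol (99.98% known); this was chosen after seeing the data. Unknown depth and 2 lines per type limit what can be seen, most of all for genes below a log2 value of 5.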
